A study of Mus musculus with 16 samples.

Results

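Heat shock proteins and DnaJ proteins are the main molecular chaperones of the cell, and their genes were followed here in mouse hamstring muscle 2 days after surgery. The members were all array probes whose gene symbol begins with Hsp followed by a, b, c, d, e, h or a digit, or with Dnaja, Dnajb or Dnajc followed by a number. This rule used names and no measured value. It took 82 of the 25697 probes on the array, which stand for 58 of the 17913 genes on it. A total of 61 probes for 48 genes were detected on at least 3 of the 15 arrays analysed and were tested. The other 21 probes were not tested, and 17 of them were detected on none of the 16 arrays. Each gene is described by its brightest tested probe unless another probe is named, and a level is a log2 normalized intensity, which can be compared between groups for 1 probe but not between genes.

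Chaperones bind unfolded or partly folded proteins and keep them from clumping. The HSP70 proteins do this in cycles of ATP hydrolysis that DnaJ proteins start and HSP110 proteins help to end, HSP90 proteins act on nearly folded clients such as kinases and steroid receptors, and the small heat shock proteins hold damaged proteins without using ATP. The cytosolic genes are switched on by heat shock factor 1, whereas those of the endoplasmic reticulum (ER) answer to the unfolded protein response. In skeletal muscle several small heat shock proteins sit at the sarcomere, where they protect actin and other filament proteins under load.

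The study used female mice in a crossed design. The animals had a spinal cord injury between vertebrae T12 and T13 (SCI) or a sham operation, and the muscle was injected with cardiotoxin (CDTX), a snake venom toxin that kills muscle fibres, or with saline. The 4 groups, with 4 arrays each, are Sham+Saline and Sham+CDTX for the sham operation and SCI+saline and SCI+CDTX for the injury, all mice being female and sampled at the same time, and the labels used here name no strain, genotype or age. SCI+CDTX is, per the series' design text, the only condition in which neurogenic heterotopic ossification, bone within muscle after a nerve lesion, develops. The labels state that SCI+CDTX replicate 2 was left out of the final analysis, so that group had 3 arrays here. The labels do not say that each array came from another animal, so p-values measure the spread between these samples. All SCI arrays lay on slide 1 and all sham arrays on slide 2, so for every comparison of SCI with sham the surgery and the slide cannot be told apart. The comparisons of CDTX with saline lie within a slide.

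Between 11114 and 13694 probes were detected per array, of which 53 to 62 were members, and the mean number of beads per probe was 33.3 to 38.9. The arrays fell apart in a measure that compares 2 probes of the same gene. For 2840 genes outside the members that had at least 2 tested probes, the difference between the brighter and the next probe was taken on each array, and the first component of these differences gave a probe difference score. The score was 0.35 to 0.39 on the 4 Sham+CDTX arrays and 0.28 on SCI+CDTX replicate 2, but between -0.27 and -0.06 on the other 11 arrays. SCI+CDTX replicate 2 also had a median correlation of 0.979 with the Sham+CDTX arrays and 0.968 with its own group. A fit to all 16 arrays with this score as a covariate, called here the score fit, is therefore set beside the results that rest on Sham+CDTX. Within the groups the score varied most through SCI+CDTX replicate 2, so the score fit rests largely on that array. Whether the score reflects sample handling or biology was not tested, and a value of the score fit is an alternative and not a correction. Muscle fibre markers were detected in all 4 groups (13 of 13). Their summed linear level was 170214 to 180016 in Sham+Saline, 148139 to 167942 in SCI+saline, 148997 to 168394 in Sham+CDTX and 150587 to 163236 in SCI+CDTX. All 10 of 10 macrophage markers were higher with CDTX after either operation (9 after sham in the score fit), with summed levels of 14835 to 22014 in SCI+CDTX and 19882 to 23416 in Sham+CDTX against 1097 to 4909 in SCI+saline and 1395 to 2527 in Sham+Saline. In whole muscle a change in the number of cells of a type and a change of RNA per cell cannot be told apart.

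Without muscle injury, part of the chaperone genes were higher on the SCI arrays, which also lay on another slide than the sham arrays. Against Sham+Saline, 18 of the 48 member genes were higher and 5 lower in SCI+saline (adjusted p under 0.05), where 14.7% of all 10842 genes tested were called higher, 15.8% lower and 30.5% in either direction. The groups did not overlap for 21 of the 48 genes (43.8%), against 24.5% of all genes. The median log2 fold change was 0.12 over the members and -0.02 over all genes. The small heat shock protein Hspb7 rose most, by 2.31 on the log2 scale, followed by Hspa4 (1.77), Hspa5 (1.59), Dnajc2 (1.52) and Hspe1 (1.30), while Hsp90aa1, undetected in Sham+Saline, has only a lower bound. By class, 3 of 3 HSP90 genes, 2 of 2 mitochondrial chaperonins, 2 of 3 HSP110 genes and 3 of 6 small heat shock proteins rose, against 1 of 8 HSP70, 0 of 3 DNAJA, 3 of 8 DNAJB and 3 of 14 DNAJC genes. In the score fit 16 members were higher and 5 lower, where 13.3% of all genes were called higher, 14.3% lower and 27.6% in either direction. Of the 23 calls, 20 were called again in the same direction, and 0 were called in the opposite one. The share of higher calls depended on the scaling: it was 78.3% as fitted, 90.5% with each slide normalized separately (19 higher, 2 lower) and 96.2% with median scaling (25 higher, 1 lower), under which the median of all genes was itself 0.18. Over all genes called, the same shares were 48.1%, 66.5% and 85.6%.

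**Figure D1:**
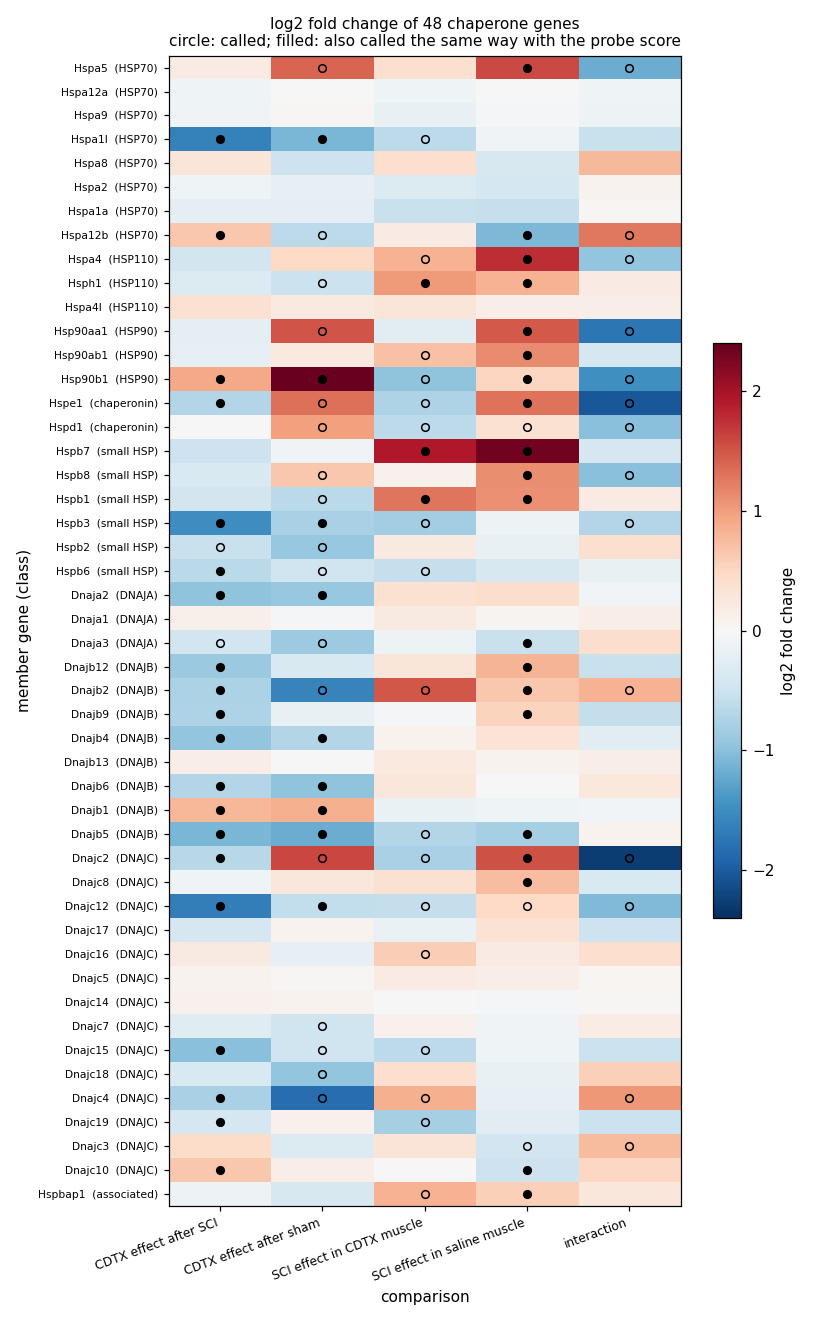
Colour gives the log2 fold change of each of the 48 tested member genes (rows, with their class) in the 5 comparisons (columns), red for higher and blue for lower. A circle marks a call at an adjusted p under 0.05, and a filled circle one that the score fit also called in the same direction; in the column for SCI in saline muscle 20 of 23 circles are filled, and in the interaction column 0 of 14.

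Hspb7, a small heat shock protein of heart and skeletal muscle that binds the filamin C scaffold, carried the widest difference between SCI and sham. Its level was 10.36, 9.45, 9.34 and 9.67 on the Sham+Saline arrays and 12.14, 11.98, 12.10 and 11.85 on the SCI+saline arrays. It was 9.24, 9.81, 9.84 and 9.55 in Sham+CDTX and 11.78, 11.12 and 11.68 in SCI+CDTX. All SCI arrays were above all sham arrays, with or without the toxin. The difference was 2.31 ± 0.21 (SE), or 4.96-fold, in saline muscle (adjusted p = 1.78e-07) and 1.92 ± 0.22, or 3.77-fold, in CDTX muscle (adjusted p = 5.58e-06). In the score fit they were 2.27 (adjusted p = 5.87e-07) and 2.24 ± 0.37 (adjusted p = 0.00435). CDTX itself moved Hspb7 by -0.49 ± 0.22 after SCI (adjusted p = 0.0844) and by -0.09 ± 0.21 after sham (adjusted p = 0.732), neither of which passed the test.

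Hspb1 encodes Hsp27, a heat-inducible small heat shock protein that guards actin filaments. It stood at 11.24, 10.73, 10.74 and 10.72 in Sham+Saline and at 11.82, 12.32, 12.27 and 11.39 in SCI+saline. In Sham+CDTX it stood at 10.27, 10.27, 10.26 and 10.03, and in SCI+CDTX at 11.58, 11.33 and 11.60. The SCI arrays were again all above the sham arrays with the same injection. The gain with SCI was 1.09 ± 0.18 in saline muscle (adjusted p = 0.000202) and 1.29 ± 0.20 in CDTX muscle (adjusted p = 8.67e-05; 1.36 ± 0.32 in the score fit, adjusted p = 0.0376). After sham surgery CDTX lowered Hspb1 by -0.65 ± 0.18 (adjusted p = 0.00708), but the score fit gave -0.70 ± 0.46 (adjusted p = 0.322) and median scaling -0.26 (adjusted p = 0.301).

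Hspb8, which works with Bag3 to clear damaged filament proteins, rose with SCI in saline muscle. Its levels were 11.10, 11.15, 10.80 and 10.98 in Sham+Saline against 11.91, 12.06, 12.42 and 12.09 in SCI+saline. The groups did not overlap, and the difference was 1.11 ± 0.17, or 2.16-fold (adjusted p = 8.64e-05). Between the CDTX groups it was 0.10 ± 0.19 (adjusted p = 0.757; 1.15 ± 0.37 in the score fit, adjusted p = 0.134), with levels of 11.59, 11.94, 11.45 and 11.65 in Sham+CDTX and 12.17, 11.34 and 11.76 in SCI+CDTX. CDTX raised Hspb8 by 0.65 ± 0.17 after sham (adjusted p = 0.00421), a direction that the score fit turned to -0.56 ± 0.53 (adjusted p = 0.513).

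The remaining small heat shock proteins, Hspb2, Hspb3 and Hspb6, are enriched in striated muscle, and Hspb2 and Hspb3 form a complex with each other. None of them passed the test for SCI in saline muscle, with log2 differences of -0.17, -0.13 and -0.38. All 3 fell with CDTX. Hspb3 had levels of 10.17, 10.14, 9.94 and 9.90 in SCI+saline and of 8.95, 8.20 and 8.48 in SCI+CDTX, without overlap. It fell by 1.5 ± 0.18, or 2.83-fold, after SCI (adjusted p = 6.03e-06). After sham it fell from 10.29, 10.41, 9.96 and 10.00 to 9.71, 9.21, 9.21 and 9.39, a difference of -0.78 ± 0.17 (adjusted p = 0.000844). The score fit gave -1.51 (adjusted p = 3.49e-05) and -1.26 (adjusted p = 0.0498), and median scaling -0.28 after sham (adjusted p = 0.163), where all genes had a median of 0.35. Hspb6, also called Hsp20, fell by 0.64 ± 0.18 after SCI (adjusted p = 0.00815) and by 0.47 ± 0.17 after sham (adjusted p = 0.0273). Hspb2 fell by 0.53 ± 0.20 after SCI (adjusted p = 0.0405) and by 0.91 ± 0.19 after sham (adjusted p = 0.000519), but median scaling gave -0.45 (adjusted p = 0.0508) and -0.26 (adjusted p = 0.202). For these 2 genes the score fit kept the call only for Hspb6 after SCI, at -0.68 (adjusted p = 0.0114), and that call was lost without SCI+CDTX replicate 3 (-0.40, adjusted p = 0.0899). The call of Hspb2 after SCI was also lost without SCI+CDTX replicate 3 or SCI+saline replicate 1, 2 or 4 (adjusted p from 0.0575 to 0.268), and that of Hspb6 after sham without Sham+CDTX replicate 1 or 4 or Sham+Saline replicate 3 or 4 (adjusted p from 0.0508 to 0.0804). Of the 13 fibre markers 3 were lower and 0 higher with CDTX after SCI, and 3 lower and 2 higher after sham (3 and 0 in the score fit), and the part of fibre content in these 3 genes was not tested.

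The HSP110 proteins are nucleotide exchange factors that release ADP and client from HSP70. Hsph1, the heat-inducible member also called Hsp105, separated the surgeries almost as Hspb7 did. It was at 9.43, 9.27, 9.55 and 9.73 in Sham+Saline, at 10.22, 10.29, 10.45 and 10.35 in SCI+saline, at 8.92, 8.96, 9.08 and 9 in Sham+CDTX and at 10.03, 9.81 and 10.20 in SCI+CDTX. No SCI array reached down to a sham array. The difference with SCI was 0.83 ± 0.13 in saline muscle (adjusted p = 0.000116) and 1.02 ± 0.14 in CDTX muscle (adjusted p = 3.6e-05), and the score fit gave 0.80 (adjusted p = 0.000273) and 1.30 ± 0.23 (adjusted p = 0.00775). CDTX after sham lowered Hsph1 by 0.51 ± 0.13 (adjusted p = 0.00385), a call lost in the score fit (adjusted p = 0.0843), and median scaling gave 0.06. Hspa4, which is expressed without heat, was at 5.63, 6.15, 6.18 and 5.40 in Sham+Saline and at 7.87, 7.53, 7.85 and 7.18 in SCI+saline. It rose by 1.77 ± 0.23, or 3.40-fold, in saline muscle (adjusted p = 1.09e-05), and by 0.83 ± 0.24 in CDTX muscle (adjusted p = 0.0147), where the score fit gave 1.46 ± 0.42 (adjusted p = 0.0942) and the call was lost without SCI+CDTX replicate 4 (0.66, adjusted p = 0.0951) or Sham+CDTX replicate 3 (0.67, adjusted p = 0.0562). Hspa4l passed no test, and only 8 of the 15 arrays detected it.

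Both cytosolic HSP90 genes rose with SCI in saline muscle. Hsp90ab1, the constitutive form, had 3 tested probes. The brightest was at 11.99, 11.92, 11.24 and 11.35 in Sham+Saline and at 12.59, 12.85, 12.84 and 12.77 in SCI+saline, a difference of 1.14 ± 0.16, or 2.20-fold (adjusted p = 2.81e-05). The other 2 probes gave 1.26 (adjusted p = 5.9e-05) and 1.33 (adjusted p = 8.94e-05), although these 2 share sequence with each other. In CDTX muscle the 3 probes gave 0.71, 0.85 and 1.07 (adjusted p = 0.00415, 0.00392 and 0.00141), and the score fit 0.40 ± 0.27 for the brightest (adjusted p = 0.565). Hsp90aa1, the heat-inducible form, was detected on 0 of 4 Sham+Saline arrays and on every array of the other 3 groups. Its measured level was 4.27, 4.65, 4.59 and 4.60 in Sham+Saline, 6.46, 5.64, 6.23 and 5.72 in SCI+saline, 6.2, 5.97, 6.21 and 5.76 in Sham+CDTX and 5.46, 5.93 and 5.92 in SCI+CDTX. Taken against the lowest detected signal of each Sham+Saline array it was at least 2.35-fold higher in SCI+saline (adjusted p = 8.51e-06) and at least 2.38-fold higher in Sham+CDTX (adjusted p = 2.36e-06). The score fit kept the first, at 1.38 (adjusted p = 0.00016), and gave 0.08 ± 0.54 for the other (adjusted p = 0.94). Between SCI+CDTX and SCI+saline Hsp90aa1 differed by -0.24 ± 0.20 (adjusted p = 0.364).

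**Figure D2:**
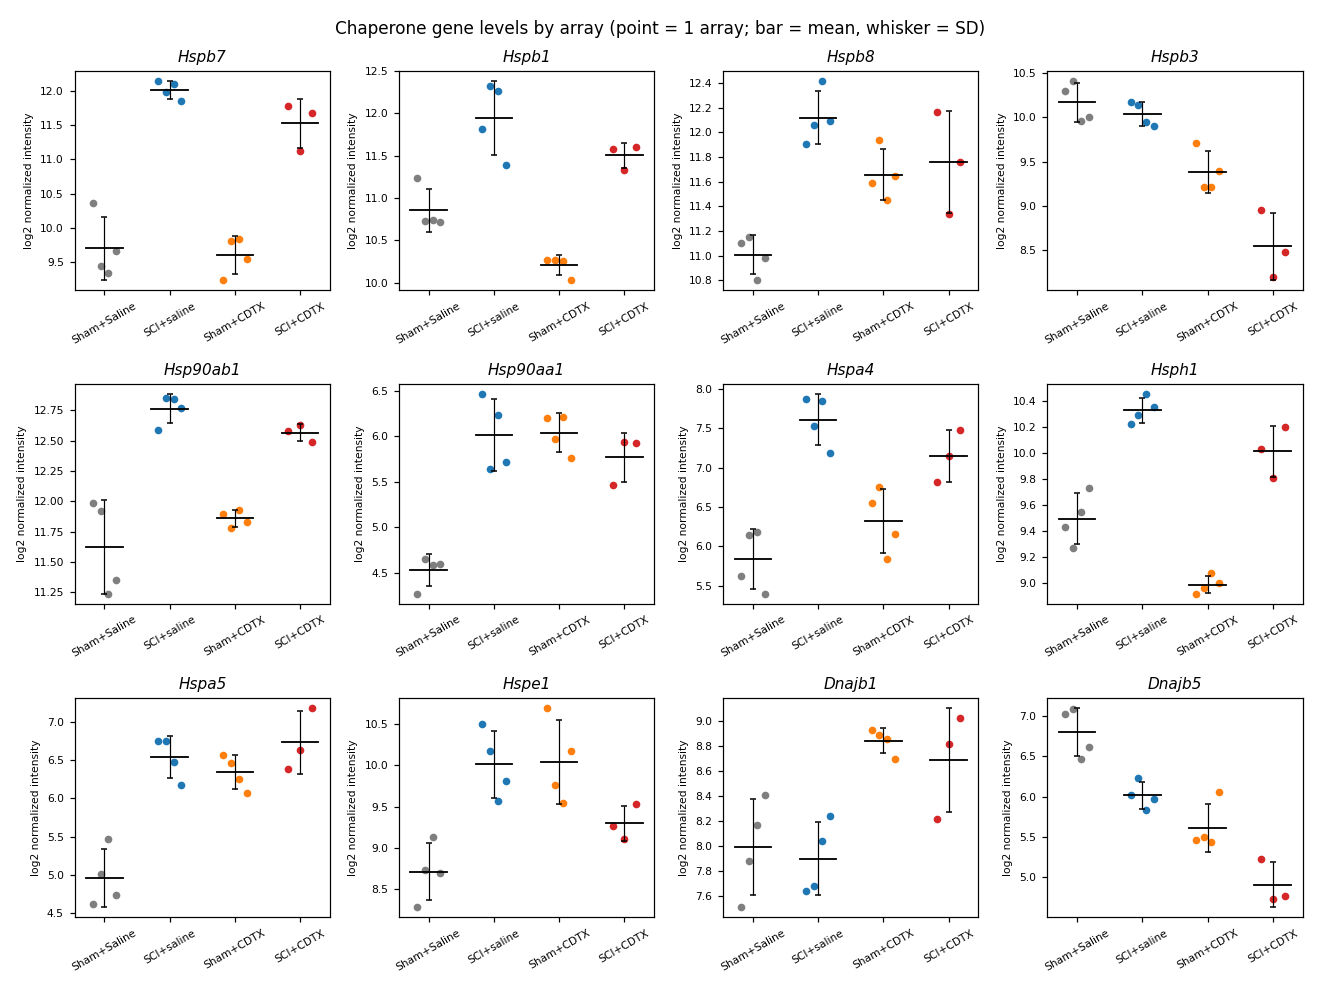
Each point is the log2 normalized intensity of 1 array for 1 of 12 member genes in the 4 groups, with the group mean (bar) and SD (whisker); axes are scaled per gene and cannot be compared between genes. Hspb7, Hspb1 and Hsph1 are higher on all SCI arrays than on the sham arrays with the same injection, whereas Hspb3 and Dnajb5 are lower with CDTX.

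The best known heat-inducible HSP70 did not follow this pattern. Hspa1a, whose product is the stress-inducible Hsp70, was at 6.36, 5.19, 5.90 and 5.86 in Sham+Saline, at 4.86, 5.26, 5.25 and 5.74 in SCI+saline, at 5.25, 5.56, 5.77 and 5.82 in Sham+CDTX and at 5.08, 4.87 and 5.26 in SCI+CDTX. The groups overlapped, and no comparison of the 15 arrays was called. The SCI difference was -0.55 ± 0.22 in saline muscle (adjusted p = 0.0682), where the score fit passed the test at -0.65 (adjusted p = 0.045). Hspa1b, a near-identical copy, has no member probe, so the probe of Hspa1a may read both. Hspa8, the constitutive cytosolic HSP70, differed by -0.38 ± 0.23 with SCI in saline muscle (adjusted p = 0.229). Hspa9, the HSP70 of mitochondria, differed by -0.05 ± 0.13 (adjusted p = 0.814), but by 0.42 under median scaling (adjusted p = 0.0236). Hspa2 and Hspa12a were not called in any comparison either.

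Hspa1l, a constitutive relative that lies head to head with Hspa1a on chromosome 17 with 547 bases between the starts, fell with CDTX. It was at 7.67, 7.47, 7.48 and 7.35 in SCI+saline and at 6.33, 5.62 and 5.66 in SCI+CDTX. It was at 7.38, 7.43, 7.82 and 7.73 in Sham+Saline and at 6.33, 6.59, 6.62 and 6.44 in Sham+CDTX. Within each surgery the groups stood apart. The fall was 1.62 ± 0.18, or 3.08-fold, after SCI (adjusted p = 2.12e-06) with -1.87 in the score fit (adjusted p = 8.69e-06). After sham the change was -1.09 ± 0.16 (adjusted p = 2.16e-05), with -3.47 ± 0.44 in the score fit (adjusted p = 0.000379) and -0.28 under median scaling (adjusted p = 0.247). Its SCI difference in CDTX muscle, -0.63 ± 0.18 (adjusted p = 0.0114), had the opposite sign in the score fit, at 1.29 ± 0.30 (adjusted p = 0.0376). Hspa12b, a distant HSP70 relative of endothelial cells, was the most lowered member with SCI in saline muscle. It was at 6.73, 6.86, 7.48 and 7.39 in Sham+Saline and at 6.11, 5.33, 6.28 and 6.49 in SCI+saline, a difference of -1.07 ± 0.22 (adjusted p = 0.00135; -1.05 in the score fit, adjusted p = 0.00217). In the same comparison 6 of 7 endothelial markers were lower and 0 higher, with summed levels of 1468 to 1855 in Sham+Saline and 994 to 1135 in SCI+saline. The part of endothelial content in the Hspa12b result was not tested.

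Hspd1 and Hspe1 encode Hsp60 and Hsp10, the barrel and the lid of the chaperonin that folds proteins in the mitochondrial matrix. The 2 genes lie head to head on mouse chromosome 1. Their starts are 216 bases apart for the RefSeq transcripts whose promoters held the motif described below, and these promoters share the sequence between the starts. With another RefSeq start the distance is 95 bases, and the promoter of that start held no 3-unit match. Part of this shared sequence is shown because it holds a block of heat shock element units, the binding motif of heat shock factor 1. The window chr1:55088029-55088106 (GRCm38.p6, RefSeq, written on the plus strand, which is the strand of Hspe1) reads, with the block in capitals:
Hspe1: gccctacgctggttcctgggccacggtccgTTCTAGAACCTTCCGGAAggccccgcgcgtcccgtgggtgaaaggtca
The motif searched was 3 alternating units, GAA, TTC and GAA with 2 free bases after each of the first 2, on both strands of the 250 bases before and 50 bases after each start. It holds the shorter 2-unit forms GAANNTTC and TTCNNGAA within it. Promoters were given for 47 of the 58 member genes, and 4 of the 47 (8.51%) held the 3-unit motif, against 179 of all 27025 genes (0.662%). These 4 were Hspd1, Hspe1, Dnajb6 and Hsph1, of which Hspd1 and Hspe1 share 1 block. The GAANNTTC form was in 11 of the 47 (23.4%, against 9.04% of all genes) and the TTCNNGAA form in 6 (12.8%, against 9.60%). A match describes letters and shows no binding.

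Of the pair, Hspe1 was at 8.28, 8.73, 9.13 and 8.70 in Sham+Saline and at 10.50, 10.17, 9.57 and 9.81 in SCI+saline. The groups stood apart, and Hspe1 rose by 1.30 ± 0.24, or 2.46-fold (adjusted p = 0.000471; 1.10 in the score fit, adjusted p = 0.0022). Hspd1 was at 10.36, 10.47, 10.81 and 10.64 against 10.82, 11.12, 10.83 and 10.98, a gain of 0.37 ± 0.13 (adjusted p = 0.0412) that the score fit put at 0.24 (adjusted p = 0.158). This call of Hspd1 was lost when any of 8 arrays was left out: SCI+saline replicate 2 or 4, Sham+CDTX replicate 2, 3 or 4, or Sham+Saline replicate 1, 2 or 4 (0.29 to 0.39, adjusted p from 0.0507 to 0.121). CDTX after sham raised Hspe1 by 1.33 ± 0.24 (adjusted p = 0.000153) and Hspd1 by 0.99 ± 0.13 (adjusted p = 5.31e-06), and the score fit reversed both, to -0.83 ± 0.59 (adjusted p = 0.357) and -0.39 ± 0.30 (adjusted p = 0.401). After SCI, CDTX lowered Hspe1 by 0.71 ± 0.26 (adjusted p = 0.034; -0.95 in the score fit, adjusted p = 0.0114; lost without SCI+CDTX replicate 1 or 3 or SCI+saline replicate 1 or 2, adjusted p from 0.0766 to 0.133), while Hspd1 differed by -0.01 ± 0.14 (adjusted p = 0.95).

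The ER chaperones are the classic targets of the unfolded protein response, through an element bound by ATF6 with NF-Y. This element, CCAAT and CCACG with 9 free bases between them, was found on either strand in the promoters of 3 of the 47 member genes (6.38%), against 37 of all 27025 genes (0.137%). These 3 were Hspa5, Hsp90b1 and Dnajc3. Their windows are shown with the matches in capitals, each on the gene's own strand in GRCm38.p6 from RefSeq: Hspa5 at chr2:34771995-34772073 on the plus strand, Hsp90b1, which holds 2 matches, at chr10:86705503-86705686 on the minus strand, and Dnajc3 at chr14:118937797-118937875 on the plus strand.
Hspa5: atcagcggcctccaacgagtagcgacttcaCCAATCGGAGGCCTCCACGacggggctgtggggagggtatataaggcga
Hsp90b1: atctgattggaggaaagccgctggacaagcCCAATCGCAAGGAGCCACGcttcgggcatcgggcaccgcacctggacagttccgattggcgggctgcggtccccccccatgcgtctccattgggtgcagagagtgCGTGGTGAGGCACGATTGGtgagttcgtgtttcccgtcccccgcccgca
Dnajc3: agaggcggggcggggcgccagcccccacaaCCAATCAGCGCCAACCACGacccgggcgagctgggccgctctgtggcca
With SCI in saline muscle Hspa5 and Hsp90b1 rose and Dnajc3 fell, as described next.

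Hspa5, also called BiP, is the HSP70 of the ER. It was at 4.61, 5.01, 5.47 and 4.73 in Sham+Saline, where 3 of 4 arrays detected it, and at 6.76, 6.76, 6.48 and 6.18 in SCI+saline. It was at 6.57, 6.47, 6.26 and 6.07 in Sham+CDTX and at 6.39, 6.63 and 7.19 in SCI+CDTX. The Sham+Saline arrays were below all others. Hspa5 rose by 1.59 ± 0.21, or 3.01-fold, with SCI in saline muscle (adjusted p = 1.25e-05; 1.43 in the score fit, adjusted p = 9.72e-05) and by 1.39 ± 0.21 with CDTX after sham (adjusted p = 1.84e-05), which the score fit turned to -0.56 ± 0.54 (adjusted p = 0.522). CDTX after SCI gave 0.19 ± 0.22 (adjusted p = 0.526).

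Hsp90b1, the ER form of HSP90 also called Grp94, rose with CDTX after both operations. It was at 9.65, 9.40, 9.99 and 9.85 in Sham+Saline and at 11.88, 12.26, 12.19 and 12.04 in Sham+CDTX, a gain of 2.37 ± 0.15 (adjusted p = 1.99e-09). It was at 10.30, 10.45, 10.02 and 10.14 in SCI+saline and at 11.03, 11.20 and 11.15 in SCI+CDTX, a gain of 0.90 ± 0.16, or 1.86-fold (adjusted p = 0.000219). The CDTX groups were above the saline groups without overlap. Both gains stayed called in the score fit, at 1.15 ± 0.31 (adjusted p = 0.0164) and 0.71 ± 0.15 (adjusted p = 0.00106). SCI raised it in saline muscle by 0.51 ± 0.15 (adjusted p = 0.0147; 0.40 in the score fit, adjusted p = 0.0276; 0.40 without Sham+Saline replicate 2, adjusted p = 0.0557) and lowered it in CDTX muscle by 0.97 ± 0.16 (adjusted p = 0.000179), where the score fit gave -0.04 ± 0.22 (adjusted p = 0.967).

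Among the DnaJ proteins of the ER, Dnajb9, or ERdj4, rose by 0.54 ± 0.15 with SCI in saline muscle (adjusted p = 0.0126) and fell by 0.75 ± 0.17 with CDTX after SCI (adjusted p = 0.00124). Its levels were 9.08, 8.87, 9.37 and 9.16 in Sham+Saline, 9.76, 9.88, 9.61 and 9.38 in SCI+saline and 8.91, 8.71 and 9.10 in SCI+CDTX, so that the SCI+saline arrays were above the other 2 groups. Dnajc3, or p58IPK, fell by 0.46 ± 0.17 with SCI in saline muscle (adjusted p = 0.0418; adjusted p = 0.0535 in the score fit, and -0.06 with an adjusted p of 0.87 under median scaling), and its call was lost when any of 9 single arrays was left out (-0.48 to -0.31, adjusted p from 0.0503 to 0.151). Dnajc10, or ERdj5, which reduces disulfide bonds, fell by 0.49 ± 0.14 there (adjusted p = 0.0135; -0.03 and adjusted p = 0.917 under median scaling) and rose by 0.65 ± 0.15 with CDTX after SCI (adjusted p = 0.00203). The second probe of Dnajc10, detected on 3 of 15 arrays, gave 0 ± 0.18 in the latter (adjusted p = 0.993).

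The DnaJ proteins of the A and B classes deliver clients to HSP70, most of them in the cytosol. After SCI, 6 of 8 DNAJB genes fell with CDTX and 1 rose, where 22.2% of all genes fell and 22.2% rose, and these 6 include Dnajb9 and Dnajb12 of the ER. After sham 4 fell and 1 rose, where 26.8% and 23.9% of all genes did, and the score fit kept 4 of these 5 calls. Dnajb5 fell most of this class after SCI, from 6.02, 6.23, 5.83 and 5.97 in SCI+saline to 5.23, 4.73 and 4.76 in SCI+CDTX, by 1.10 ± 0.19, or 2.15-fold (adjusted p = 0.000176). After sham it went from 7.02, 7.09, 6.47 and 6.62 to 5.46, 5.50, 5.43 and 6.05, by -1.19 ± 0.18 (adjusted p = 2.26e-05). It was also lower with SCI in saline muscle, by -0.79 ± 0.18 (adjusted p = 0.00256). The score fit kept all 3 calls, at -1.19, -2.08 and -0.87 (adjusted p = 0.000426, 0.00651 and 0.00238), whereas median scaling gave -0.39 after sham (adjusted p = 0.0657) and -0.41 for SCI in saline muscle (adjusted p = 0.0809). Dnajb6, which keeps polyglutamine and other proteins from aggregating and is mutated in a limb-girdle muscular dystrophy, fell by 0.70 ± 0.17 after SCI (adjusted p = 0.0025) and by 0.96 ± 0.16 after sham (adjusted p = 4.99e-05), with -0.70 and -1.18 in the score fit (adjusted p = 0.00643 and 0.0408). Dnaja2, a constitutive partner of Hspa8, had 2 tested probes that gave -0.97 and -1.04 after SCI and -0.91 and -0.83 after sham, with the highest adjusted p of the 4 values at 0.000914. After sham the score fit gave -1.84 and -1.59 (adjusted p = 0.0131 and 0.028), and median scaling lost the call of the brighter probe.

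Dnajb1, or Hsp40, the heat-inducible partner of Hsp70, went the other way and rose with CDTX after both operations. It was at 7.51, 7.88, 8.17 and 8.41 in Sham+Saline and at 8.93, 8.89, 8.86 and 8.70 in Sham+CDTX. It was at 7.64, 7.68, 8.04 and 8.24 in SCI+saline and at 8.22, 8.82 and 9.03 in SCI+CDTX. The sham groups stood apart, whereas 1 SCI+CDTX array lay just below the highest SCI+saline array. The gains were 0.85 ± 0.20 after sham (adjusted p = 0.00168) and 0.79 ± 0.22 after SCI (adjusted p = 0.00631), and 1.55 and 0.86 in the score fit (adjusted p = 0.0377 and 0.00854). The call after SCI was lost without SCI+CDTX replicate 4 (0.62, adjusted p = 0.0523). SCI in saline muscle gave -0.10 ± 0.20 (adjusted p = 0.772). Dnaja1, another heat-inducible DnaJ, was detected on only 3 of 15 arrays and was not called.

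Dnajb2, a DnaJ that steers ubiquitinated clients, rose with SCI in saline muscle from 9.29, 9.25, 9.09 and 9.18 to 9.76, 9.61, 10.19 and 9.85, by 0.65 ± 0.18 (adjusted p = 0.0103). In Sham+CDTX it was at 7.52, 7.5, 7.59 and 7.79, below every other array, and in SCI+CDTX at 9.47, 8.51 and 9.30. The SCI difference in CDTX muscle was 1.49 ± 0.19 (adjusted p = 1.67e-05) but 0.69 ± 0.28 in the score fit (adjusted p = 0.264). CDTX after SCI lowered it by 0.76 ± 0.19 (adjusted p = 0.00388; -0.59 in the score fit, adjusted p = 0.0221). Dnajb12, an ER membrane DnaJ, rose by 0.81 ± 0.21 with SCI in saline muscle (adjusted p = 0.00558) and fell by 0.90 ± 0.22 with CDTX after SCI (adjusted p = 0.00302).

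The DNAJC class is diverse and shares only the J domain. Dnajc2, or zuotin, which sits at the ribosome exit, rose with SCI in saline muscle from 7.36, 7.51, 7.93 and 7.29 to 8.92, 9.29, 8.95 and 8.99, by 1.52 ± 0.16, or 2.87-fold (adjusted p = 1.3e-06), and its second probe gave 1.40 ± 0.21 (adjusted p = 5.68e-05). Its brighter probe was at 8.89, 9.23, 9.35 and 9.06 in Sham+CDTX and at 8.58, 8.19 and 8.34 in SCI+CDTX. CDTX after sham thus gave 1.61 ± 0.16 (adjusted p = 2.1e-07), but -0.71 ± 0.40 in the score fit (adjusted p = 0.229). Dnajc12, a co-chaperone of aromatic amino acid hydroxylases, fell most with CDTX after SCI, from 7.90, 7.95, 7.59 and 7.45 to 6.33, 5.73 and 6.15, by 1.66 ± 0.17, or 3.15-fold (adjusted p = 1.7e-06; -1.82 in the score fit, adjusted p = 5.93e-06). After sham it fell by 0.60 ± 0.16 (adjusted p = 0.00483; -1.92 in the score fit, adjusted p = 0.00367), although median scaling gave 0.23 (adjusted p = 0.28). Dnajc15, of the mitochondrial import motor, fell by 1 ± 0.18 after SCI (adjusted p = 0.00025). Dnajc4 was at 7.89, 8, 7.46 and 7.90 in Sham+Saline and at 6, 6, 6.02 and 5.96 in Sham+CDTX, a fall of 1.82 ± 0.14 (adjusted p = 1.76e-08) that was -0.29 ± 0.38 in the score fit (adjusted p = 0.657). After SCI it fell by 0.77 ± 0.15 (adjusted p = 0.000521; -0.62 in the score fit, adjusted p = 0.0104).

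The other members can be given briefly. Dnajc8, a splicing-associated DnaJ, rose with SCI in saline muscle by 0.74 ± 0.19 (adjusted p = 0.00669). Dnajc7, a partner of both HSP70 and HSP90, and Dnajc18 fell with CDTX after sham by 0.47 ± 0.13 and 0.94 ± 0.16 (adjusted p = 0.00553 and 0.000115). The score fit called neither, at 0.13 ± 0.34 and -0.53 ± 0.42 (adjusted p = 0.838 and 0.424), which turned the sign of Dnajc7. Median scaling lost both calls. Dnajb13, Dnajc5, Dnajc14 and Dnajc17 were called in no comparison, as were Dnaja1, Hspa1a, Hspa2, Hspa4l, Hspa8, Hspa9 and Hspa12a. No probe was tested for Dnajb3, Dnajb7, Dnajb8, Dnajc1, Dnajc5b, Dnajc5g, Dnajc6, Dnajc9, Dnajc11 and Hspa14.

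Where a gene had more than 1 tested probe, the probes did not always give the same value. The brightest probe was paired with each other tested probe of its gene, which gave 13 pairs. Hsp90ab1 entered with 2 dimmer probes that share sequence. For SCI in saline muscle the brighter probe was called in 6 pairs, and the other probe had the same sign in 4 of these and was called as well in 3. These 3 were the second probe of Dnajc2 and the 2 dimmer probes of Hsp90ab1. Whether the 2 Dnajc19 probes read the same transcript was not tested. For Hspd1, Dnajc2 and Dnajc19 the 2 probes share no run of 20 bases, and the first 30 bases of each are given, the brighter probe of each gene first:
Hspd1 ILMN_2713841: ggtttcctttgacgatatataatggtttac
Hspd1 ILMN_2639036: gtaaaatttggtgcggacgctcgagcctta
Dnajc2 ILMN_1249242: aagaacatggagtggcctctcaggctgaca
Dnajc2 ILMN_1233931: cacttctcggacaatgaggcagaccgtgtt
Dnajc19 ILMN_3103439: ggtgtaagccctactgccaataaagggaag
Dnajc19 ILMN_3030148: ccctctggtggaagaaggtctgaaacccat
Dnajc19, a subunit of the mitochondrial import motor, changed by 0.11 ± 0.15 with CDTX after sham on the brighter probe (adjusted p = 0.559) and by -1.26 ± 0.29 on the other (adjusted p = 0.00138). In the score fit these were -0.53 ± 0.36 (adjusted p = 0.336) and -0.03 ± 0.71 (adjusted p = 0.984). On the dimmer probe the Sham+CDTX arrays were at 4.85, 5.11, 4.98 and 4.99 and the Sham+Saline arrays at 6.70, 7.19, 5.23 and 5.86. For Hspd1 the same comparison gave 0.99 on the brighter probe and 0.18 ± 0.21 on the other (adjusted p = 0.497), and for Dnajc2 it gave 1.61 and 0.55 ± 0.21 (adjusted p = 0.0345). The score fit gave -0.39 and -0.23 for Hspd1 and -0.71 and -0.61 for Dnajc2, none of them called. For SCI in saline muscle the second probe of Hspd1 gave -0.21 ± 0.21 (adjusted p = 0.489), so the call of Hspd1 rests on 1 probe.

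**Figure D3:**
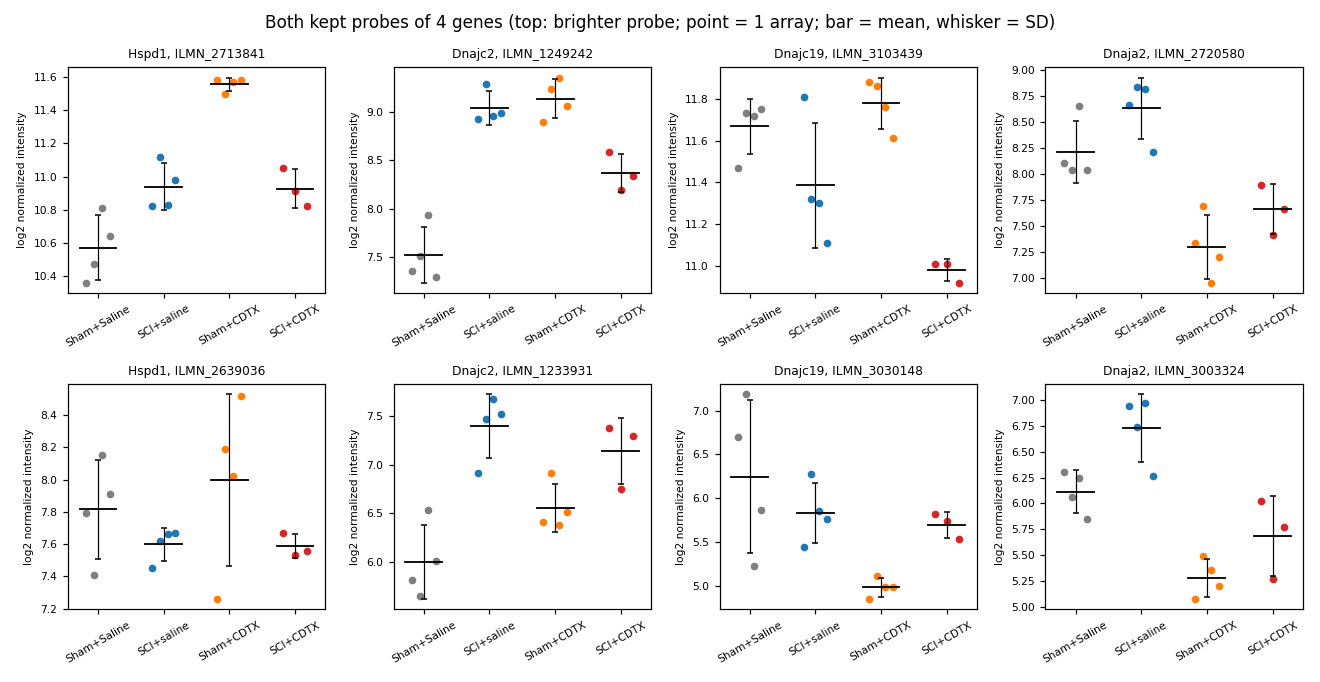
The 2 tested probes of Hspd1, Dnajc2, Dnajc19 and Dnaja2 are plotted as log2 normalized intensity by group, the brighter probe in the top row; points are arrays, bars means and whiskers SD. Both Dnaja2 probes are low in the 2 CDTX groups, while the Dnajc19 probes give 0.11 and -1.26 for CDTX after sham (-0.53 and -0.03 in the score fit).

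Over all members, CDTX after SCI called 4 genes higher and 18 lower, where 22.2% of all genes were called higher, 22.2% lower and 44.3% in either direction. The median log2 fold change was -0.34 over the members and -0.04 over all genes. The 4 higher genes were Hsp90b1, Dnajb1, Dnajc10 and Hspa12b (0.64 ± 0.24, adjusted p = 0.0397), the last of which was lost without SCI+CDTX replicate 3 or 4 or SCI+saline replicate 1 or 2 (0.40 to 0.66, adjusted p from 0.0586 to 0.19). The lowest were Dnajc12, Hspa1l, Hspb3, Dnajb5 and Dnajc15. The share of higher calls was 18.2% and stayed between 13.6% and 26.7% under the other scalings. The score fit kept 20 of the 22 calls, where it called 42.5% of all genes. It is no separate check here, because the score mainly sets SCI+CDTX replicate 2 apart. With all 16 arrays and no score, 19 of the 22 calls were kept.

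CDTX after sham called 8 members higher and 18 lower, where 23.9% of all genes were called higher, 26.8% lower and 50.7% in either direction. With median scaling 17 members were higher and 5 lower, so the share of higher calls moved from 30.8% to 77.3% while that over all genes called moved from 47.1% to 84.0% and the median of all genes to 0.35. The score fit called 2 members higher, Dnajb1 and Hsp90b1, and 8 lower, where it called 12.1% of all genes higher, 9.32% lower and 21.4% in either direction, and kept 9 of the 26 calls. Between the 2 CDTX comparisons, which share no array, 13 genes were lower in both (72% of either list, against 50.5% and 41.7% of the lists of all genes): Dnaja2, Dnaja3, Dnajb2, Dnajb4, Dnajb5, Dnajb6, Dnajc12, Dnajc15, Dnajc4, Hspa1l, Hspb2, Hspb3 and Hspb6. Of these 13, 8 lost the call after sham under median scaling and 6 in the score fit, and only Dnajb6 kept it in both. The second probe of Dnajb6 was not called after SCI (-0.39, adjusted p = 0.0831). Dnajb1 and Hsp90b1 were higher in both. Hspa12b, Dnajc2 and Hspe1 were called in opposite directions, and for Dnajc2 and Hspe1 the score fit gave a negative value after either operation.

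SCI in CDTX muscle called 9 members higher and 11 lower, where 16.5% of all genes were called higher, 15.8% lower and 32.4% in either direction. Higher were, in order, Hspb7, Dnajb2, Hspb1, Hsph1, Dnajc4, Hspbap1, Hspa4, Hsp90ab1 and Dnajc16, and the lowest were Hsp90b1, Hspb3 (-0.84 ± 0.18, adjusted p = 0.00195), Dnajc19 (-0.80 ± 0.16, adjusted p = 0.000849), Dnajc2 and Hspe1. The score fit gave -0.43 for Hspb3 (adjusted p = 0.605) and -0.29 for Dnajc19 (adjusted p = 0.694), whose second probe gave 0.71 without the score. The count was 13 without SCI+CDTX replicate 4. With each slide normalized separately 11 were higher and 7 lower, a share of 61.1% against 45.0% as fitted. Over all genes called the share was then 67.2% against 51.1%, and the median of all genes 0.11. In the score fit 5 members were higher and 0 lower, where 1.29% of all genes were called higher, 0.62% lower and 1.91% in either direction: Hspb7, Hspb1 and Hsph1, and also Hspa5 (1.98 ± 0.37, adjusted p = 0.01) and Hspa1l, which were not called higher without the score. Of the 9 genes that SCI raised in CDTX muscle, 7 were also raised in saline muscle (78% of the 9 and 39% of the 18, against 27.3% and 30.7% of the lists of all genes): Dnajb2, Hsp90ab1, Hspa4, Hspb1, Hspb7, Hspbap1 and Hsph1. Dnajc12, Dnajc2, Hsp90b1, Hspd1 and Hspe1 were called higher in saline muscle and lower in CDTX muscle. In CDTX muscle the score fit called none of them lower and gave positive values for Dnajc12, Dnajc2, Hspd1 and Hspe1. The second probe of Dnajc2 was positive there without the score. Among calls lost with 1 array left out were Dnajc12 in saline muscle (SCI+saline replicate 1 or 2, Sham+Saline replicate 1 or 2) and Hspe1 in CDTX muscle (SCI+CDTX replicate 1, 3 or 4, Sham+CDTX replicate 1 or 4).

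The difference between the CDTX effects after SCI and after sham was tested as an interaction. It was called for 14 members, 4 higher and 10 lower, where 13.9% of all genes were called higher, 11.7% lower and 25.6% in either direction. The most negative were Dnajc2 (-2.28 ± 0.24, adjusted p = 5.85e-06), Hspe1 (-2.04 ± 0.35, adjusted p = 0.000443), Hsp90b1 (-1.47 ± 0.22, adjusted p = 0.000125) and Hspa5 (-1.20 ± 0.30, adjusted p = 0.00744). The second probe of Dnajc2 had the same sign but was not called. In the limma score fit 0 members were called, where 0.0821% of all genes were called higher, 0.237% lower and 0.319% in either direction; 4 of the 48 had an unadjusted p under 0.05 there (8.33%, against 11.9% of all genes). With all 16 arrays and no score 5 were called, and with median scaling 19, all lower, under which the median of all genes was -0.24. Of the 14 calls, 0 held in every setting, and 3 (Hsp90aa1, Hsp90b1 and Hspe1) held in every setting but the score fit. For Hsp90aa1 the size has no exact value, since Sham+Saline is below detection.

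**Figure D4:**
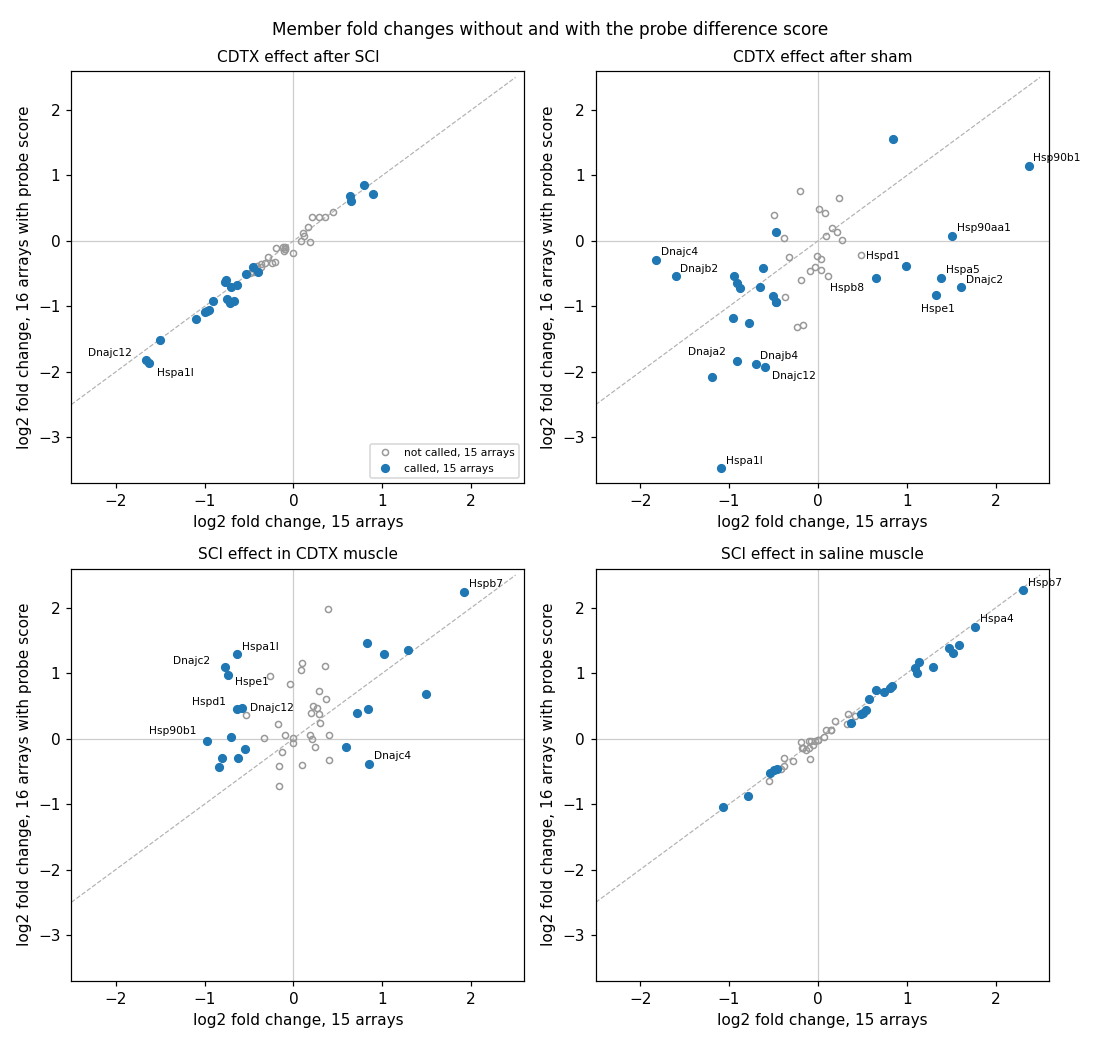
Each point is 1 of the 48 member genes, with the log2 fold change from 15 arrays on the x axis and from the score fit on the y axis, in 4 comparisons; filled points are called in the former and the dashed line marks equal values. Points lie close to the line for CDTX after SCI and for SCI in saline muscle, which use no Sham+CDTX array, and far from it in the other 2 panels. Closeness in the former 2 is no separate check, since their groups differ little in the score apart from SCI+CDTX replicate 2.

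The chaperones work with partners that are not members, and these were read from lists by function. Cryab, or alpha-B-crystallin, a small heat shock protein of the sarcomere that the naming rule leaves out, rose with SCI by 1.16 ± 0.14 in saline muscle (adjusted p = 4.94e-06) and by 0.95 ± 0.15 in CDTX muscle (adjusted p = 0.000103; 1.07 in the score fit, adjusted p = 0.0262). Beside the 14.7% of all genes higher and 15.8% lower with SCI in saline muscle, 8 of 13 tested genes of the cytosolic chaperonin and of prefoldin, which fold actin and tubulin, were higher and 0 lower (6 higher in the score fit), with Cct2 at 1.39 (adjusted p = 4.77e-05) the highest. Of 17 HSP90 co-chaperones 5 were higher, led by Cacybp at 1.89 (adjusted p = 1.47e-06), and 2 lower, with Fkbp4, which links HSP90 to steroid receptors, the lowest at -0.85 (adjusted p = 0.000115). Of 8 HSP70 co-chaperones St13, or Hip, was the only one higher, at 1.46 (adjusted p = 5.23e-06), and Bag1 the only one lower, at -0.61 (adjusted p = 0.00239). Of 7 mitochondrial partners 2 were higher and 0 lower, with the protease subunit Clpp at 1.05 (adjusted p = 0.000524).

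Of 4 listed heat shock factors and their regulators, 1 was called with SCI in saline muscle, where 30.5% of all genes were called in either direction. Hsf1, the main activator, differed by 0.22 ± 0.18 (adjusted p = 0.384), and Hsf2, a related factor, rose by 1.03 ± 0.31 (adjusted p = 0.0157; 0.76 in the score fit, adjusted p = 0.0593). CDTX after SCI lowered 3 of the 4 and 0 rose, where 22.2% of all genes fell and 22.2% rose, with Hsf2 at -1.45 ± 0.33 (adjusted p = 0.00163; -1.81 in the score fit, adjusted p = 0.000387) the lowest and Hsf1 at -0.35 ± 0.19 (adjusted p = 0.15). Among 15 tested genes of ER folding and the unfolded protein response, 8 were higher and 2 lower with CDTX after SCI, in the score fit as well, where 22.2% of all genes were higher and 22.2% lower. They were led by the disulfide isomerase Pdia3 at 1.53 (adjusted p = 2.22e-05), while Atf4, the stress transcription factor, was lowest at -0.56 (adjusted p = 0.0109). After sham 9 were higher and 4 lower, beside 23.9% and 26.8% of all genes (7 and 0 in the score fit, beside 12.1% and 9.32%). With SCI in saline muscle 3 were higher, with Creld2 highest at 0.75 (adjusted p = 0.00364). Ddit3, which encodes the stress factor CHOP, was the only one lower, at -0.54 (adjusted p = 0.00931). Of all genes 14.7% were higher and 15.8% lower there. All 10 macrophage markers were also higher with CDTX, and 5 of 7 fibroblast markers after SCI and 7 of 7 after sham (0 of 7 in the score fit); their part in the CDTX results for ER genes was not tested.

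The authors' deposited table gives its own difference p of SCI+CDTX against each other group for the 82 member probes. That p was under 0.05 for 15 probes when SCI+saline was the other group, with 7 higher and 8 lower values in SCI+CDTX. It was under 0.05 for 22 probes against Sham+CDTX (13 higher, 9 lower) and for 29 against Sham+Saline (21 higher, 8 lower). The share of all probes under 0.05 is not given here, so these counts do not show whether the members differ from the array as a whole. Of the 15 and the 22, 12 and 21 were also called here in the same direction, and 0 in the opposite one. For Hspb7 the authors' deposited table lists group means of 2809.8 in SCI+CDTX and 797.7 in Sham+CDTX, in units of their normalized intensity.

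Across the 4 groups, 17 of the 48 member genes (35.4%) had their highest mean in SCI+saline, where 24.1% of all genes did, and 5 (10.4%) had their lowest there, against 21.6% of all genes. The fewest members had their highest mean in SCI+CDTX, 7 (14.6%, against 22.7% of all genes).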

How the data were processed

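RNA of whole muscle was extracted with Trizol, labelled as biotinylated cRNA and hybridised to Illumina bead arrays, per the labels' protocols. The authors deposited a table of intensity per probe and array, not normalized, with a detection p-value and a bead number for each. The submitters' processing notes name GenomeStudio 2011.1. Their table of final values, also deposited, gives a normalized intensity per group and a difference p-value of SCI+CDTX against each other group. No correction of that p-value for multiple testing is stated per the file headers.

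Here, intensities of 15 arrays were corrected and quantile normalized with neqc of limma 3.58.1 in R 4.3.3 (offset 16, log2). Because of the offset, log2 fold changes of dim probes are understated. Probes counted as tested when 3 or more arrays had a detection p below 0.05, which left 14763, and these were fitted with a model of 4 group means and empirical Bayes. Each p-value was adjusted by the Benjamini-Hochberg method over all probes and called under 0.05, with no block for replicate number. For counts over genes, the brightest tested probe stood for each gene. The "at least" folds of Hsp90aa1 divide the bright group's mean by a floor, which on each dim array was the lowest signal of any detected probe unless Hsp90aa1 itself was brighter. The score fit used 16 arrays. Symbols were updated through Entrez identifiers for 23681 probes, which renamed 3 member probes (Dnajb2, Dnajc3 and Hsph1). Promoters came from RefSeq.

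The rule for named genes took the 5 highest and 5 lowest called members of each comparison, the brightest gene of each class, listed heat-inducible, ER and muscle chaperones, and the highest and lowest called gene of each list of partners. Others, among them Dnaja2, Dnajb12, Dnajc7, Dnajc8 and Dnajc18, were chosen after their values were seen. The members and all gene lists were chosen with earlier results of these data known. The fit was tested on simulated data. Alternatives changed the scaling, background correction, probe filter, arrays, slide handling, variance model and probe choice.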

Additional observations from a re-analysis of the deposited data

Results flagged for a closer look

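In 8 of 136 groups of 4 arrays of the named genes, 1 array stood away from the other 3 by more than Dixon's 95% critical value for 4 samples, and chance gives about 5%. Dnajc10 was at 8.72 on Sham+CDTX replicate 3 against 8.51 to 8.55 on the others. Dnaja3 was at 10.17 on the same array against 10.30 to 10.32. On Sham+CDTX replicate 4, Dnajb5 was at 6.05 against 5.43 to 5.50 and Hspb1 at 10.03 against 10.26 to 10.27. On Sham+Saline replicate 1, Hspb1 was at 11.24 against 10.72 to 10.74 and Dnajc19 at 11.47 against 11.72 to 11.75. Dnajc4 was at 7.31 on SCI+saline replicate 4 against 7.70 to 7.77. On SCI+CDTX replicate 2, which is not in the 15 arrays, Dnajc4 was at 5.74 against 6.81 to 7.01.

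The CDTX effect differed between SCI and sham for 14 genes by limma's interaction test. It was more positive after SCI for Hspa12b by 1.26 (adjusted p = 0.00915), Dnajc4 by 1.04 (adjusted p = 0.0014), Dnajb2 by 0.84 (adjusted p = 0.0265) and Dnajc3 by 0.76 (adjusted p = 0.0294). It was more negative for Hspb3 at -0.71 (adjusted p = 0.0456), Hspa4 at -0.94 (adjusted p = 0.0477), Hspd1 at -1 (adjusted p = 0.000984), Hspb8 at -1.01 (adjusted p = 0.00712), Dnajc12 at -1.06 (adjusted p = 0.00321) and Hspa5 at -1.20 (adjusted p = 0.00744). The most negative were Hsp90b1 at -1.47 (adjusted p = 0.000125), Hsp90aa1 at -1.74 (adjusted p = 0.000186), Hspe1 at -2.04 (adjusted p = 0.000443) and Dnajc2 at -2.28 (adjusted p = 5.85e-06). Hsp90aa1 was not detected in Sham+Saline, so its size is not exact. None of these 14 was called in the score fit, and the calls of Dnajc2 and Hspd1 were not made on their second probes.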

How the results depend on the processing

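Counts of called members moved by more than 1.5 times in few settings. With all 16 arrays SCI in CDTX muscle gave 11 calls and the interaction 5. The score fit gave 10 calls for CDTX after sham, 5 for SCI in CDTX muscle and 0 for the interaction, where 4 had an unadjusted p under 0.05. Leaving out 1 array gave 16 to 24 calls for CDTX after SCI, 25 to 27 for CDTX after sham, 13 to 20 for SCI in CDTX muscle (13 without SCI+CDTX replicate 4), 19 to 23 for SCI in saline muscle and 10 to 16 for the interaction. Signs turned for the second probe of Dnaja3 (0.02 for CDTX after sham, 0.43 for SCI in saline muscle), Dnajc10 (0 for CDTX after SCI), Dnajc19 (-1.26 for CDTX after sham, 0.71 for SCI in CDTX muscle), Dnajc2 (0.59 for SCI in CDTX muscle) and Hspd1 (-0.21 for SCI in saline muscle). Median scaling turned CDTX after sham for Dnajb9 (0.44), Dnajc12 (0.23), Hspa12b (0.19) and Hsph1 (0.06), and SCI in saline muscle for Hspa9 (0.42). The score fit turned CDTX after sham for Dnajc2 (-0.71), Hspa5 (-0.56), Hspb8 (-0.56), Hspd1 (-0.39) and Hspe1 (-0.83). It turned SCI in CDTX muscle for Dnajb5 (0.02), Dnajc12 (0.47), Dnajc2 (1.10), Dnajc4 (-0.38), Hspa1l (1.29), Hspd1 (0.45) and Hspe1 (0.98), and the interaction for Dnajb2 (-0.05), Dnajc12 (0.10), Dnajc4 (-0.33), Hspa5 (0.55), Hspb8 (0.15) and Hspd1 (0.21). These lists hold only genes named by the rule whose value was called in at least 1 of the 2 fits compared. Other signs turned without a call in either, such as Dnajc3 for CDTX after sham (-0.32 as fitted, 0.48 under median scaling). Dnajc7, not named by the rule, also turned in the score fit for CDTX after sham (0.13). The cause was not tested. Of 2001 values under the settings that keep every array in its group, 1811 kept direction and side of the threshold, and of 2550 with 1 array left out 2416 did and 0 reversed. These values include uncalled ones. Fewer calls held in every setting: 12 of 22 for CDTX after SCI, 3 of 26 for CDTX after sham and 15 of 23 for SCI in saline muscle. For SCI in CDTX muscle 3 of 20 held, and for the interaction 0 of 14. Without the score fit these were 12, 10, 15, 8 and 3. Replicate numbers did not pair the samples: 3 of 21 same-number pairs correlated above 0.1 (range -0.27 to 0.38), and 4 of 15 arrays were closest to their own number. With a replicate block 20, 26, 18, 22 and 13 members were called in the 5 comparisons, in the order above. Low signal limits Hspa4l, Dnaja1, Hspa1a and Hsp90aa1.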
